A study of Mus musculus with 3 samples.

Results

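Mouse embryonic fibroblasts (MEFs) of the OG2 strain and of the ICR strain were compared here by RNA-seq, across genes and with 1 library for each strain. Both libraries were labelled embryonic fibroblast at passages 3 to 5, and they are 2 of the 3 samples of the series; the third, an ESC library, was not used. OG2 mice carry an Oct4-GFP transgene, and by the methods of the study MEFs came from mid-gestation embryos with that allele and grew in medium with serum. Those methods do not describe ICR embryos separately, and the number of embryos behind each library is not given in the sources used here. No reprogramming factor or compound was named for either library. The labels name no sort of the cells. Of 29267 genes in each table, 11711 were compared. These had at least 10 counts in 1 of the libraries and a place on chromosomes 1 to 19, and the 423 further genes with such counts on X or Y were left out, since the sex of the embryos is not given.

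MEFs are not 1 cell type. They grow out of the mesenchyme of limbs, body wall and head, and fibroblasts of each place keep a code of Hox and other homeobox genes in culture. The same cells lay down collagen, fibronectin and proteoglycans, take on contractile fibres on plastic, and slow their division over passages. Macrophages, vessel cells and cartilage of the embryo can come along in the early passages.

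The OG2 library held 5149297 counts and the ICR library 4590599, after rounding, so 3 counts correspond to 0.591 and 0.644 counts per 1000000 counts (CPM). Levels are given as counts and as CPM scaled with the TMM method. The difference of a gene is its log2(CPM + 1) in OG2 MEFs minus that in ICR MEFs, which understates the difference of genes with low counts. A gene was called past the fold where this difference was at least 1 log2 unit in either direction. With 1 library of each strain there is no replicate, no test and no p-value, and strain cannot be told apart from embryo, passage, dish or library. Ratios of CPM come with an exact 95% interval for counting error alone. Without molecular identifiers, reads copied by PCR do not count separate molecules. In bulk RNA fewer cells of a type and less RNA per cell cannot be told apart.

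Both libraries held the genes that mark fibroblasts. All 23 listed fibroblast and mesenchyme genes were kept and none was past the fold, where 3.44% of all genes were. Col1a1, a chain of collagen I, had 53373 counts in OG2 MEFs and 48730 in ICR MEFs, a ratio of 1.00 (0.993 to 1.02). Vim, the mesenchymal intermediate filament, had 29935 and 25415 counts. Pou5f1, the gene whose promoter drives the transgene, had 0 counts in both, which allows up to 3 counts, and Nanog had 2 and 0. Globin and liver genes were near the floor, since none of 10 erythroid and none of 11 liver markers reached 10 counts. Of 12 vessel markers 4, with Pecam1 and Tie1 among them, had 0 counts in both libraries, and 4 others reached 10 counts. Summed, the vessel markers had 122 counts in OG2 MEFs and 152 in ICR MEFs.

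Across the 11711 genes the levels of the libraries lay close together, with Pearson's r of 0.974 for log2(CPM + 1) as a description over genes that share both libraries. The median difference was 0.01 and its SD over genes 0.44. Past the fold were 140 genes higher in OG2 MEFs, 1.2% of the genes compared, and 263 higher in ICR MEFs, 2.25%. For 5162 genes, 44.1% of all, the whole counting interval of the ratio lay within 0.5 log2 units of 0, and these are called close to constant. Depth set much of that share, since all of them were among the 8940 genes with at least 100 counts over both libraries. Among those deeper genes they made up 57.7%. Above 100 counts the interval still narrows with depth, so this share is not matched in depth to any list below. Of the 403 genes past the fold, 303 had fewer than 100 counts over both libraries, and the interval of 396 excluded a ratio of 1.

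**Figure D1:**
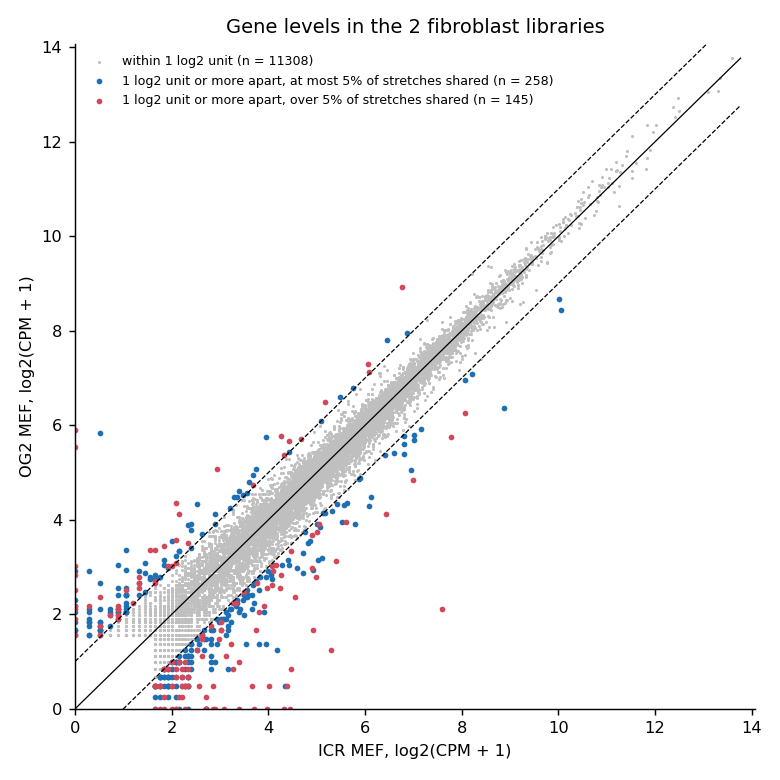
Level of each of the 11711 genes in ICR MEFs (x axis) and OG2 MEFs (y axis), both as log2(CPM + 1), with the line of equality and dashed lines 1 log2 unit to either side. Grey points are the 11308 genes within that band, blue points the 258 past it whose transcripts share at most 5% of their stretches with other genes, and red points the 145 past it that share more. Most coloured points sit at low levels, and the red points lie farthest out.

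Most of the genes with the very largest differences share sequence with other genes. To measure this, each gene's annotated transcripts were cut into stretches of 50 bases, and the share of them also found in another gene was counted. Where a read fits more than 1 gene, RSEM splits it by its own estimate, so the counts of such genes are less sure. Of the 15 largest differences towards ICR MEFs among protein-coding genes, 13 shared over 5% of their stretches and 10 over 50%. Towards OG2 MEFs these numbers were 10 and 6 of 15.

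The largest difference of all protein-coding genes towards ICR MEFs was that of Tpm3-rs7, a copy without introns of Tpm3, which makes a tropomyosin of the actin cytoskeleton. The coding parts of the 2 genes, 744 bases each, differ at 3 bases. The stretches below hold all 3 and are shown because no other coding bases tell the genes apart. They are coding exon sequence of the sense strand from GENCODE M21 transcripts on GRCm38, coding bases 68 to 127, with the bases that differ in capitals (G5A, G31A and G60A, the Tpm3 base first, counted from 1 at the left end). Tpm3 lies at chr3:90079799-90079858 on the plus strand and Tpm3-rs7 at chr14:113314743-113314802 on the plus strand.
Tpm3: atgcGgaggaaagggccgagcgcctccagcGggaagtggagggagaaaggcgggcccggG
Tpm3-rs7: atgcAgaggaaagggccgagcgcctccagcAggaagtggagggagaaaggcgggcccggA
Srp54a and Srp54c, copies of a subunit of the signal recognition particle on chromosome 12, differ at 6 of 1512 coding bases. The next stretch holds 3 of those 6 bases and is shown as an example of how little tells the copies apart. It spans coding bases 906 to 965, at chr12:55102487-55102546 and chr12:55252791-55252850, both on the plus strand (T40C, G41A and T60G, the Srp54a base first).
Srp54a: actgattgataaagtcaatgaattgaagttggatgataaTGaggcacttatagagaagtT
Srp54c: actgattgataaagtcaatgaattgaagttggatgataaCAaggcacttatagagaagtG
For Timm23, a subunit of the mitochondrial import channel, and its copy Gm10273 on chromosome 10, all 627 coding bases are the same.

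Each of these pairs lay within the fold once its members were summed. Tpm3-rs7 had 17 counts in OG2 MEFs and 897 in ICR MEFs, while Tpm3 had 3366 and 1737. Their sum was 3383 and 2634 counts, a difference of 0.24. Gm10273 had 0 and 44 counts and Timm23 584 and 453, and the sum differed by 0.11. Gm4353 had 0 and 88 counts beside 135 and 80 of Nup35, a nuclear pore gene, and the sum differed by -0.43. Srp54a had 271 and 84 counts, Srp54c 931 and 756, and the sum differed by 0.39. In each of these pairs the gene alone was past the fold in 1 direction and the pair was within it.

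The same held in the other direction. Gm20388, an annotated gene whose exons run over Galnt2 and Usp10 on chromosome 8, had 231 counts in OG2 MEFs and 0 in ICR MEFs. Galnt2, which starts mucin-type sugar chains, had 1521 and 1428, so that the family differed by 0.17. The processed pseudogene Gm6768 had 298 and 0 counts beside 355 and 519 of Ncoa4, the receptor that takes ferritin to the lysosome, and together they differed by 0.21. Amd2 had 17 and 0 counts and its relative Amd1, of polyamine synthesis, 632 and 573, with a difference of 0.05 for the sum. Hmga1b, whose 321 coding bases are those of Hmga1, had 789 and 304 counts, and Hmga1 had 1714 and 1550, with 0.31 for the sum.

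Over all genes past the fold, 109 belonged to 68 families joined by shared stretches. Of these families 42 differed by less than 0.5 log2 units when their members were summed, and 13 stayed past the fold. The median size of the difference was 1.65 for the genes and 0.29 for their families. These genes were chosen for their differences, and a sum is drawn towards its most abundant member. Part of this drop was therefore fixed by the choice. Some families also join unlike genes, such as H2-Q6 with Efr3a. How reads were split between copies was not tested. Genes without shared stretches were past the fold in 2.29% of 7432 cases, and those with over 50% in 34.8% of 244. The last group also had the lowest levels, a median of 9.70 CPM against 32.2 CPM.

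**Figure D2:**
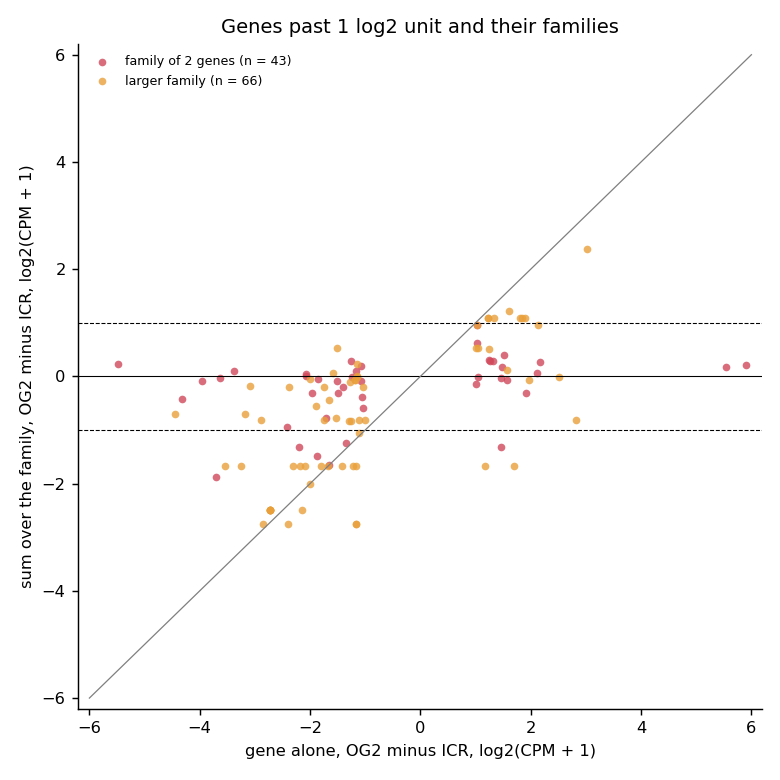
Difference of each of the 109 past-fold genes that belong to a family joined by shared stretches (x axis) against the difference of its summed family (y axis), both OG2 minus ICR on the log2(CPM + 1) scale, with dashed lines at 1 and -1 and a grey line of equality. Red points are the 43 genes in families of 2 and orange points the 66 in larger ones. The points farthest left and right sit near 0 on the y axis, while a lower group stays below -1.

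Of the 13 families that stayed past the fold as a sum, 10 were higher in ICR MEFs. Cwc22, a splicing factor that joins the exon junction complex, had 140 counts in OG2 MEFs and 587 in ICR MEFs. Of its relatives in the annotation 6, Gm13698 among them, lie at chr2:83955693-83993045 with 0 counts in OG2 MEFs and 26 each in ICR MEFs. Summed, the 9 genes of the family stood at 27.6 and 160 CPM, 5.78 times higher in ICR MEFs (4.82 to 6.98). At chr2:175191065-177840336 lies a dense set of zinc finger genes, of the kind that bind DNA and often silence it, and 20 of the 26 genes compared there were past the fold, 17 of them towards ICR MEFs. One family of 22 members in it, Gm14410 and Gm4631 among them, summed to 436 and 1292 counts, 3.23 times higher in ICR MEFs (2.90 to 3.61). Within that family Gm4724, with 53 and 19 counts, and Gm14434, with 47 and 10, were higher in OG2 MEFs, so the members did not move as 1 block.

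The other 3 were higher in OG2 MEFs. A family of 99 predicted genes joined by shared stretches, with Gm3636 and Gm3373 among its members, summed to 267 counts in OG2 MEFs and 113 in ICR MEFs, a ratio of 2.17 (1.73 to 2.73). The zinc finger gene Zfp979 had 36 and 0 counts, at least 11-fold higher against a floor of 3 counts, and its family of 6 had 38 and 3. The third, the zinc finger genes Zfp991, Zfp992 and Zfp993 of chromosome 4, summed to 129 and 48 counts, a difference of 1.22, with Zfp991 alone past the fold, at 50 and 12 counts. The Dynlt1 genes, light chains of the dynein motor, were not among the 13 families, since their 4 members gave 1201 and 566 counts and a ratio of 1.95 (1.76 to 2.16), just within the fold. Dynlt1a and Dynlt1b were past the fold, and Dynlt1c, with 34 and 37 counts, was not.

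By position, the genes past the fold were spread over all autosomes, from 0.964% of the genes compared on chromosome 19 to 5.50% on chromosome 17. Runs of at least 4 past-fold genes with gaps of at most 0.5 Mb numbered 8 and held 63 genes, 15.6% of those past the fold. Besides the pair of chromosome 2 runs they lay in the Il11ra2 and zinc finger regions of chromosome 4, at the C1q genes, at the Slfn genes of chromosome 11, in the MHC and in the protocadherin genes. Leaving out genes with over 5% of shared stretches took chromosome 2 from 4.78% to 1.65% and chromosome 4 from 5.30% to 2.94%. Chromosome 9 moved less, from 4.49% to 4.13%. Over the genome that left 93 genes higher in OG2 MEFs and 165 higher in ICR MEFs among 10923, or 2.36%.

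**Figure D3:**
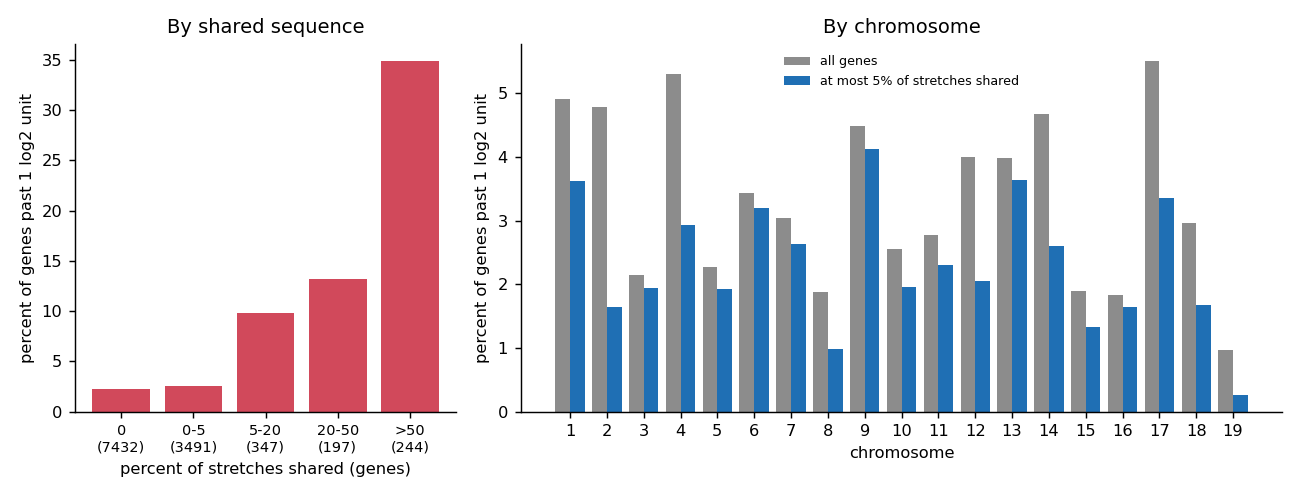
Percent of genes past 1 log2 unit in either direction, at left by the percent of a gene's 50-base stretches found in another gene (number of genes in parentheses) and at right by chromosome for all genes (grey) and for genes with at most 5% shared (blue). The share runs from 2.29% to 34.8% across the bins at left, and at right the gap between grey and blue is wide on chromosomes 2 and 4.

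A pair of neighbours on chromosome 17 shared few stretches with other genes. Glo1, which clears methylglyoxal and is a gene known to vary in copy number among mouse strains, had 1246 counts in OG2 MEFs and 541 in ICR MEFs, 245 and 116 CPM, a ratio of 2.11 (1.91 to 2.34). Btbd9, at chr17:30215524-30576488 beside Glo1 at chr17:30584936-30626871, had 166 and 58 counts, a ratio of 2.63 (1.94 to 3.60). The genes compared on either side were within the fold, Zfand3 with a ratio of 1.15 (1.01 to 1.30) and Abcg1 with 0.968 (0.481 to 1.96). The copy number of this region in the embryos was not measured. Of the 10 compared genes on the list of strain-variable loci, Gbp2b, an interferon-induced GTPase, had 20 and 0 counts, at least 6.12-fold higher in OG2 MEFs against a floor of 3 counts. Ifi202b, of the interferon-inducible DNA sensors, had 40 and 146 counts, 3.98 times higher in ICR MEFs (2.79 to 5.80).

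Among genes without near-identical copies, 2 stood out by size, and this choice was made after the values were seen. Gm20721 had 285 counts in OG2 MEFs and 2 in ICR MEFs, a ratio of 131 (35.9 to 1085). Its exons overlap those of Gnas, a G protein subunit gene with 6944 and 6288 counts, on the opposite strand, and without strand in the counting the 2 cannot be told apart. Pianp, which makes a neuronal ligand of PILR receptors, had 2 and 90 counts, 49.1 times higher in ICR MEFs (13.2 to 411), and no gene of the tables overlaps its exons.

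For position in the body, the same Hox genes were found in the 2 libraries, with shifts of level within the fold. Of 39 Hox genes 32 were compared, and none was past the fold, beside the 1.2% and 2.25% of all genes. Of the 19 with at least 100 counts over both libraries 3 were close to constant, where 57.7% of all genes above that floor were. Depth was not matched, and the whole Hox list summed to only 2172 counts in OG2 MEFs and 1879 in ICR MEFs. The low share was therefore not told apart from low depth. The median difference over the 32 genes was 0.06. Pearson's r of their levels was 0.928 as a description, where it was 0.974 over all genes. Hoxc6, of the forelimb and chest level, had 181 counts in OG2 MEFs and 166 in ICR MEFs, with a difference of 0.00. Hoxa10, of the hindlimb and lower trunk level, had 129 and 130, and Tbx5 and Pitx1, which mark forelimb and hindlimb, were both present, with 35 and 56 counts and with 87 and 99. Counts of the early and late paralogue groups leaned apart, a split made after the values were seen. Of the 20 genes of groups 1 to 8, 16 were above 0, with a median difference of 0.31, and of the 12 genes of groups 9 to 13, 10 were below 0, with a median of -0.30. Hoxc5, with 114 and 54 counts and a difference of 0.90, and Hoxd13, the most distal limb gene, with 86 and 140 counts and -0.79, were the ends of that range. Both were within the fold, and neighbouring Hox transcripts overlap, so their counts are less sure.

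Other transcription factors mark limb, body wall, head or gut mesenchyme. Of 65 compared, 1 was past the fold towards OG2 MEFs and 4 towards ICR MEFs, 7.69% in all beside 3.44% of all genes, with a median of -0.04. These counts rested on low counts, since none of the 36 genes with at least 100 counts over both libraries was past the fold. With a pseudocount of 5 none of the 65 was. Prrx1, the limb and body wall mesenchyme factor, had 2565 and 2400 counts. Higher in ICR MEFs were Tfap2b, of neural crest, with 3 and 19 counts, Msx1, of limb tip and face, with 22 and 54, Lmx1b, of the dorsal limb, with 17 and 38, and Six2, of face and kidney mesenchyme, with 8 and 20. The smallest of these ratios was 2.44 for Lmx1b (1.34 to 4.6) and the largest 6.90 for Tfap2b (2.03 to 36.4).

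**Figure D4:**
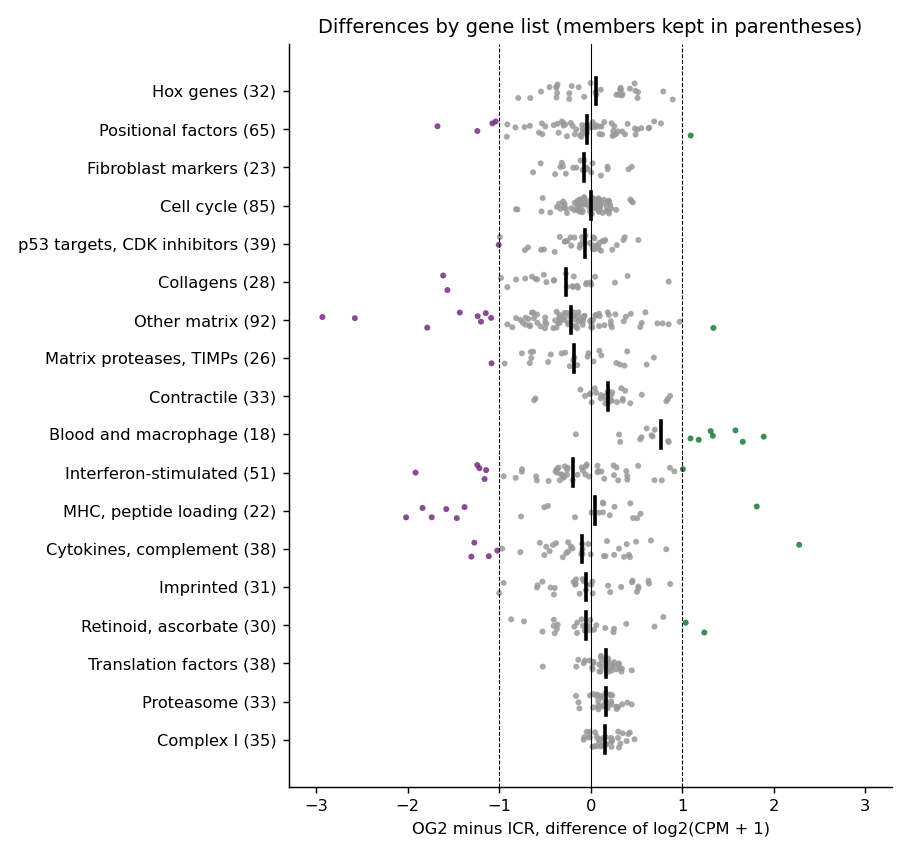
Difference of each compared member of 18 gene lists (x axis, OG2 minus ICR, log2(CPM + 1)), with 1 point a gene, a black bar at the median of each list and dashed lines at 1 and -1. Green points are past the fold towards OG2 MEFs and purple points towards ICR MEFs, and the number of members compared follows each name. The blood and macrophage list sits to the right with its median at 0.77, the matrix lists lean to the left, and the Hox and cell cycle lists have no coloured point.

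Proliferation differed little. Of 85 genes of DNA replication and mitosis compared, none was past the fold, where 3.44% of all genes were, with a median of 0.01. Of the 81 with at least 100 counts over both libraries 58 were close to constant, where 57.7% of all genes above that floor were, without matching for depth. Cdk4, the G1 kinase, had 2395 and 2038 counts, and Ccnd1, its cyclin, had 2392 and 2217. Top2a, the topoisomerase of mitotic chromosomes, had 1092 and 1094, a ratio of 0.916 (0.841 to 0.997). The lowest differences of the list were those of Cenpf, of the kinetochore, with 160 and 262 counts and -0.82, and Gmnn, the licensing inhibitor geminin, with 46 and 77 counts and -0.80. Mki67, the proliferation antigen, had 824 and 1090 counts, with -0.53. Of 39 p53 targets and CDK inhibitors, only Perp, a p53 target in cell junctions, was past the fold, beside 3.44% of all genes. Perp had 143 and 268 counts. Cdkn1a, the p21 inhibitor, had 2264 and 2001 counts, and Cdkn2a, the locus of p16 and p19 that marks aging cultures, had 235 and 199, a ratio of 1.08 (0.893 to 1.32).

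Genes of the matrix leaned to ICR MEFs. Over 146 compared genes of collagens, other matrix and matrix proteases, 1 was past the fold towards OG2 MEFs and 11 towards ICR MEFs, beside 1.2% and 2.25% of all genes, and 104, or 71.2%, had a difference below 0, against 48.9% of all genes. The medians were -0.27 for 28 collagen genes, -0.21 for 92 other matrix genes and -0.18 for 26 proteases and inhibitors. Matrix transcripts are long, and long genes were lower in OG2 MEFs as a whole, with a median of -0.06 in the longest quintile and 0.08 in the shortest quintile of the deeper genes. After a correction for both GC content and length in bins of genes, chosen after the data were seen, the collagen median was -0.24 and that of other matrix -0.18.

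Col6a3 carried the largest change in collagen counts. This long chain of collagen VI had 1770 counts in OG2 MEFs and 4977 in ICR MEFs, 349 and 1069 CPM, 3.06 times higher in ICR MEFs (2.90 to 3.24). Its partner chains Col6a1, with 4117 and 4293 counts, and Col6a2, with 2439 and 2683, differed by -0.18 and -0.26. The collagen I chain Col1a2 had 43016 and 40754 counts, and Col3a1, of collagen III, had 12289 and 13611. The other collagen past the fold was Col28a1, with 4 and 20 counts.

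Proteoglycans and genes of cartilage or tendon made up the 8 other matrix genes higher in ICR MEFs. Acan, the large proteoglycan of cartilage, had 7 and 80 counts, 12.5 times higher in ICR MEFs (5.78 to 32.0). Prelp, a leucine-rich repeat proteoglycan, had 94 and 309 counts, 3.58 times (2.84 to 4.56). Fmod, the fibromodulin of tendon, had 207 and 520 counts, 2.74 times (2.33 to 3.23), and Aspn, its relative asporin, had 303 and 661, 2.38 times (2.07 to 2.73). Tnn, a tenascin, had 8 and 67 counts, and Thbs4, a thrombospondin of tendon, 11 and 28. Matn3 and Hapln1, both of cartilage matrix, had 9 and 25 and 5 and 15. Of 9 cartilage lineage genes compared, 3 were past the fold towards ICR MEFs, namely Acan, Matn3 and Hapln1, and none towards OG2 MEFs, with 6 below 0 and a median of -0.45. The lean rested on low counts, since the 3 genes with at least 100 counts over both libraries had a median of 0.27. Summed, the list stood at 672 CPM in OG2 MEFs and 585 CPM in ICR MEFs, a ratio of 1.15 (1.09 to 1.21). Col2a1, the main collagen of cartilage, lay on the other side of 0, with 848 and 587 counts, and Sox9, its transcription factor, had 89 and 109. Of 6 tendon lineage genes compared, Fmod and Thbs4 were past the fold towards ICR MEFs, 5 were below 0 and the median was -0.49. Scx, the tendon transcription factor, had 62 and 71 counts.

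Mgp, the matrix protein that keeps cartilage and vessel walls free of mineral, went the other way. It had 1127 counts in OG2 MEFs and 405 in ICR MEFs, 222 and 87.0 CPM, a ratio of 2.55 (2.28 to 2.87). Ltbp1, which holds latent TGF-beta in the matrix, had 2963 and 1382 counts and fell just short of the fold, with a difference of 0.97. Ibsp, a bone sialoprotein, had 11 and 0 counts. Among proteases Mmp28 was past the fold, with 22 and 48 counts, and Mmp14 and Mmp2, a membrane collagenase and a gelatinase of fibroblasts, differed by -0.15 and -0.32.

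Contractile genes of myofibroblasts leaned to OG2 MEFs with none past the fold, where 3.44% of all genes were. Of 33 compared, 28 were above 0, where 51.1% of all genes were, with a median of 0.19. Translation factors, proteasome subunits and reference genes had like medians, of 0.17, 0.16 and 0.18, and under full-quantile normalization the contractile median was 0.12. Acta2, smooth muscle actin, had 26445 and 19227 counts, a difference of 0.34, and Tagln, an actin-binding marker of the same state, had 13881 and 9430, with 0.43. Des, the filament of muscle and pericytes, had 507 and 257, with 0.84. Muscle itself was not seen, since Myod1 had 0 counts in both libraries and 16 of 18 muscle markers had under 10 counts in each. Pericyte and smooth muscle markers had a median of -0.01, with 4 of 10 close to constant.

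**Figure D5:**
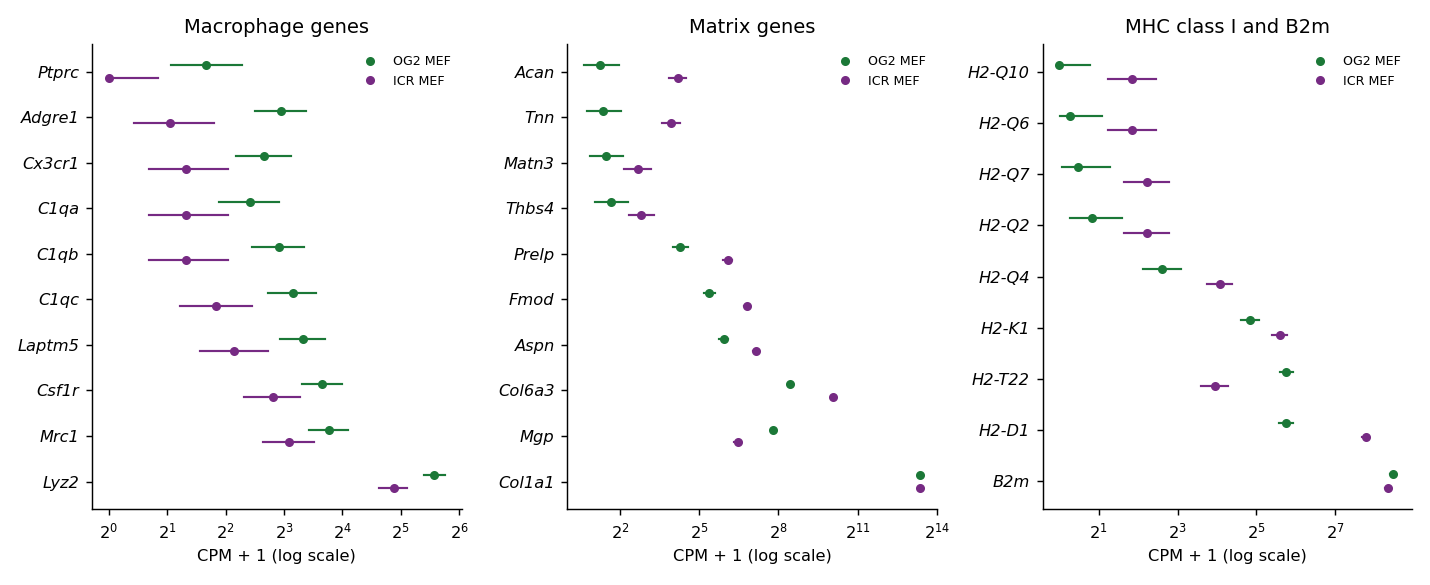
Levels of 29 genes as CPM + 1 on a log axis of base 2, OG2 MEFs in green and ICR MEFs in purple, with bars for the exact 95% Poisson interval of the count, which covers counting error only. The macrophage genes (left) are higher in OG2 MEFs at low levels, the matrix genes (middle) other than Mgp and Col1a1 are higher in ICR MEFs, and among MHC genes (right) H2-T22 and H2-D1 lie on opposite sides while B2m is alike.

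Genes of macrophages were higher in OG2 MEFs, at low levels. Of 19 markers of blood cells and macrophages 18 were compared, 7 were past the fold towards OG2 MEFs, beside 1.2% of all genes, and none towards ICR MEFs, and 17 were above 0. The count of 7 rested on low counts, since it was 0 with a pseudocount of 5 and 1 of 5 genes with a mean of at least 30 counts, where the medians were 0.51 and 0.70. Their median difference was 0.77, where the median of all genes was 0.01. Summed they stood at 146 CPM in OG2 MEFs and 76.9 CPM in ICR MEFs, a ratio of 1.90 (1.68 to 2.17). Over the 16 that share at most 5% of their stretches the median was 0.85.

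The macrophage surface and complement genes led that list. Adgre1, the F4/80 antigen, had 34 and 5 counts, a ratio of 6.24 (2.43 to 20.4). Ptprc, the CD45 antigen of all white cells, had 11 and 0 counts, at least 3.36-fold higher against a floor of 3 counts. Cx3cr1, the fractalkine receptor, had 27 and 7 counts, and Laptm5, a lysosomal protein of blood cells, 46 and 16. The 3 chains of complement C1q, which tissue macrophages make, lie side by side on chromosome 4, and C1qa had 22 and 7 counts, C1qb 33 and 7, and C1qc 40 and 12. Lyz2, the macrophage lysozyme, had 237 and 132 counts, a ratio of 1.65 (1.33 to 2.05), and Csf1r, the receptor macrophages need to live, had 59 and 28, both within the fold. Coro1a, an actin protein of white cells, had 17 and 18 counts and did not follow.

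Markers of vessel, epithelial and neural cells had few members to compare, so their counts past the fold say little beside the 3.44% of all genes. Of 12 endothelial markers 4 were compared and Emcn was past the fold towards ICR MEFs, with 10 and 36 counts, and 3 of the 4 were below 0, with a median of -0.43. Of 20 epithelial markers 5 were compared, and Krt8 was past the fold with 6 and 19, with a median of -0.34. Of 8 neural markers compared none was past the fold, with a median of -0.27.

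Immune genes that fibroblasts make themselves were past the fold in both directions, and the macrophage sum of 146 and 76.9 CPM stands beside them; its part in their differences was not tested. Of 51 interferon-stimulated genes 1 was past the fold towards OG2 MEFs, Xaf1 with 49 and 20 counts, and 5 towards ICR MEFs, 11.8% in all beside 3.44% of all genes, with a median of -0.20. That share rested mostly on low counts, since only Slfn9 was past the fold among the 27 genes with at least 100 counts over both libraries. Slfn9, of the Schlafen genes that restrain growth and viruses, had 35 and 134 counts, 4.17 times higher in ICR MEFs (2.86 to 6.24). Its neighbours Slfn2 and Slfn5 on chromosome 11 had 14 and 34 and 5 and 16 counts. Herc6, the enzyme that attaches ISG15 in mice, had 14 and 36 counts. Ifit3b had 4 and 15 counts, and with Ifit3 the sum was 39 and 36. The most abundant listed counts barely moved, Ifitm3 with 973 and 1086 counts and Ifitm2 with 828 and 788.

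MHC class I genes, which present peptides to T cells, split by gene. H2-D1 had 269 counts in OG2 MEFs and 1014 in ICR MEFs, 53 and 218 CPM, 4.11 times higher in ICR MEFs (3.59 to 4.72). H2-T22, of the nonclassical genes, had 270 and 67 counts, a ratio of 3.70 (2.82 to 4.91). The Qa genes were few in counts and higher in ICR MEFs, H2-Q4 with 26 and 74, H2-Q7 with 2 and 17, H2-Q2 with 4 and 17, H2-Q6 with 1 and 12, and H2-Q10 with 0 and 12, while H2-K1 had 140 and 221. These genes are among the most variable between strains, they share stretches with other genes, from 3.50% for H2-T22 to 29.3% for H2-Q6, and 1 reference haplotype served for both libraries. Summed over 18 class I genes there were 772 and 1483 counts, 2.09 times higher in ICR MEFs (1.92 to 2.29). Without H2-D1 the other 17 summed to 503 and 469 counts, 99.1 and 101 CPM, a ratio of 0.984 (0.866 to 1.12). In that sum H2-T22, with 270 and 67 counts, offset H2-K1 and the Qa genes, which were higher in ICR MEFs. The near-equal sum does not mean that its genes were alike. The partner and loading genes did not follow H2-D1, B2m with 1788 and 1494 counts, Tap1 with 66 and 88 and Tapbp with 286 and 296.

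Of 38 chemokine, cytokine, complement and acute phase genes 1 was past the fold towards OG2 MEFs and 4 towards ICR MEFs, 13.2% in all beside 3.44% of all genes, with a median of -0.10. Ccl7 and Ccl2, neighbouring chemokines for monocytes, had 99 and 226 and 85 and 163 counts, 2.49 times (1.96 to 3.18) and 2.09 times (1.60 to 2.75) higher in ICR MEFs. Icam1, the adhesion molecule that inflammation raises, had 53 and 127 counts. Among the serpins of chromosome 12, Serpina3n had 99 and 15 counts and Serpina3i 7 and 177, with Serpina3g at 138 and 219. The first 2 share 6.75% and 8.51% of their stretches with other genes. Cxcl12, the chemokine stroma makes for stem cells, had 4296 and 2998 counts, a difference of 0.39.

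Secreted signals past the fold were mostly higher in ICR MEFs. Of 78 compared, Wnt4 was past the fold towards OG2 MEFs, with 54 and 14 counts and a ratio of 3.54 (1.94 to 6.90), and 5 were past it towards ICR MEFs, 7.69% in all beside 3.44% of all genes, with a median of -0.06. The Wnt inhibitors Sfrp2, with 34 and 136 counts, and Sfrp4, with 35 and 107, were 4.36 times (2.98 to 6.55) and 3.33 times (2.26 to 5.03) higher in ICR MEFs. Lgr5, the receptor of R-spondins that raises Wnt signals, had 41 and 156 counts, 4.15 times (2.92 to 6.0), and was named after its values were seen. Igfbp3, which binds insulin-like growth factors, had 630 and 1246 counts, Sema3d, a guidance cue, 31 and 73, and Hgf, the ligand of Met, 24 and 50. Grem1, the BMP inhibitor of limb mesenchyme, had 1523 and 718 counts and a difference of 0.96, just within the fold.

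Genes of retinoid and ascorbate pathways, which the study is about, had a median difference of -0.05 at this starting point. Of 30 compared, 2 were past the fold, 6.67% beside 3.44% of all genes in either direction. Both were higher in OG2 MEFs, where 1.2% of all genes were past the fold in that direction. These were genes of low counts, since none of the 20 members with at least 100 counts over both libraries was past the fold. Only 1 of the 2 shared at most 5% of its stretches with other genes. Rarb, a retinoic acid receptor that retinoic acid itself induces, had 30 and 11 counts, a ratio of 2.50 (1.22 to 5.53), and Top2b overlaps it on the opposite strand with 830 and 865 counts. Aldh1a7, of the retinal dehydrogenase family, had 25 and 7 counts. Dhrs3, which turns retinal back to retinol and is another target, had 172 and 89 counts, with a difference of 0.79. Rarg, another of the receptors, had 672 and 601, and Crabp1, which carries retinoic acid in the cytosol, 1540 and 1462. Tet2, which takes ascorbate as a cofactor in oxidizing methylcytosine, had 49 and 86 counts, with -0.87. Of the factors used to reprogram fibroblasts, Klf4 had 234 and 329 counts and Myc 198 and 207.

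Housekeeping groups held no gene past the fold. None of 38 translation factors, 33 proteasome subunits and 35 subunits of respiratory complex I was past the fold, where 3.44% of all genes were. Of these lists 34, 30 and 24 genes were close to constant. All members had at least 100 counts over both libraries, and 57.7% of all genes above that floor were close to constant. That background was not matched for depth, and the translation factors summed to 168479 counts in OG2 MEFs and 137119 in ICR MEFs. The higher shares of these lists were therefore not told apart from their depth. The 3 lists leaned to OG2 MEFs together, with medians of 0.17, 0.16 and 0.15. Eef1a1, the elongation factor, had 70893 and 57164 counts, with a difference of 0.19. Under full-quantile normalization the translation median was 0.06 and that of the proteasome 0.10. Of genes used as references Actb had 16267 and 16967 counts, with -0.19, and Gapdh had 18220 and 12745, with 0.39. Cholesterol and fatty acid synthesis had a median of 0.01 over 31 genes, 25 of them close to constant, and none past the fold.

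Imprinted genes held no member past the fold among 31 compared, where 3.44% of all genes were. H19, the growth-restraining RNA, had 39567 and 26529 counts, and its neighbour Igf2, the fetal growth factor, 26421 and 16901, with differences of 0.45 and 0.52, both higher in OG2 MEFs. Slc22a18, a transporter, had 10 and 23 counts and lay just within the fold. Of 36 immediate early genes that serum and handling raise none was past the fold, Egr1 with 654 and 728 counts. Glycolysis had Eno2, the neuronal enolase, with 96 and 215 counts, as the single member past the fold among 36, and stress genes Hspa1b, a heat shock protein, among 42. The counts of these lists lie near the 3.44% of all genes. Hspa1b had 204 and 89 counts and its near-identical copy Hspa1a 43 and 57, and their sum of 247 and 146 was within the fold.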

How the data were processed

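RNA was extracted with TRIzol and TruSeq libraries were made, 1 for each of the 2 MEF strains. The methods of the study name a NextSeq 500, while the series' own design text names another instrument. Per the labels the authors used Bowtie, RSEM and mm10, and the methods name trimming and the Ensembl v67 annotation. The deposited tables hold an expected count per gene, an estimated number of reads, and TPM, which the authors' RSEM run scaled for gene length to the same total in each library. Deposited FPKM was not used. The methods also name a GC-content normalization, and expected counts were taken as values before it. The expected counts were not whole for 9.59% and 10.1% of genes.

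Expected counts were rounded and scaled to CPM with TMM factors of 0.986 (OG2) and 1.01 (ICR) from edgeR 4.0.16 under R 4.3.3, with a pseudocount of 1. Genes with at least 10 counts in 1 library were kept, and 423 on X or Y and 51 without a chromosome in the annotation were left out. Identifiers matched GENCODE M21 (GRCm38) for 98.3% of genes. Ratios have exact conditional (Clopper-Pearson) intervals at 95%, from scipy 1.17.1. No test across genes was possible with 1 library a group, and none was run. The interval and the calls were checked on simulated Poisson counts, which is the error the interval assumes. Planted changes were larger than the fold and lay only in genes with higher counts. Read splitting, PCR copies and spread between embryos were not simulated. The check does not cover those sources or changes at low counts. Gene families were joined where genes shared at least 20% of the 50-base stretches of either.

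The comparison, the 40 gene lists and the rule for naming genes (the 15 largest differences in each direction among protein-coding genes, list members, and neighbours) were chosen with earlier results of these data known. Alternatives were pseudocounts of 0.1 and 5, median-of-ratios factors (DESeq2 1.42.0), totals without TMM, full-quantile normalization (limma 3.58.1), TPM, 2 other count filters, and correction in 20 bins of GC content or length. Of the 106 named genes checked, 11 overlap the exons of another gene with at least 10 counts. Some genes are not reported here by name.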

Additional observations from a re-analysis of the deposited data

How the results depend on the processing

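No paired analysis was possible because each strain had 1 library, and for the same reason no library could be left out and no test by DESeq2 or another tool was run. Low counts set the number of genes past the fold. With 140 genes higher in OG2 MEFs and 263 in ICR MEFs as the reported values, a pseudocount of 0.1 gave 222 and 411, a pseudocount of 5 gave 27 and 79, and a mean of at least 30 counts gave 45 and 104. Of the restrictions chosen after seeing the data, at least 100 counts over both libraries left 33 and 67, and at most 5% of shared stretches left 93 and 165, each from fewer genes. Summing near-identical genes gave 108 and 201. Both counts stayed within 1.5 times under the other 7 scalings, filters and corrections and the GC-content and length correction, from 122 to 175 and from 230 to 372, with more genes higher in ICR MEFs each time. The genes close to constant numbered from 4951 to 5162 under the 2 other size factors and the 4 filters, and were not recounted under the other settings. The filters on counts could not change that number, since every gene close to constant had at least 100 counts over both libraries. Across the alternatives the median over all genes ran from -0.08 with TPM to 0.02 with median-of-ratios factors. The 89 genes re-examined gave 965 values no farther from the reported one than the wider side of their counting interval. Another 54 were farther, and none changed sign. The 4 filters leave the value of a gene as it was, so the values under them could not move and say nothing of stability. Of the list counts 854 stayed within 1.5 times and 130 did not, most of them counts of a few genes. The depth of 5149297 and 4590599 counts leaves genes under about 100 counts with wide intervals, and nothing here measures the spread between embryos of 1 strain.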

Other observations

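Some genes that belong to no list and have no near-identical copy were well past the fold, and they were chosen after their values were seen. Penk, which makes the enkephalin peptides and is transcribed in embryonic mesenchyme, had 109 counts in OG2 MEFs and 320 in ICR MEFs, 3.20 times higher in ICR MEFs (2.57 to 4.01). Fndc1, a secreted fibronectin-domain protein, had 71 and 255 counts, 3.91 times (3.00 to 5.17), and Olfml2a, a secreted olfactomedin-domain protein, had 4 and 37. Chl1, a neural cell adhesion molecule, had 8 and 49 counts, and Cmah, which turns one sialic acid into another, had 32 and 117, 3.99 times (2.68 to 6.09). Towards OG2 MEFs, Styk1, a kinase-like membrane protein, had 98 and 22 counts, a ratio of 4.09 (2.55 to 6.82), and Syt17, a synaptotagmin, had 27 and 2. None of these intervals covers the spread between embryos, which 1 library a strain cannot show.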
